A study of Canis lupus familiaris with 8 samples.

Results

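The respiratory chain subunits encoded in the nuclear genome were followed in blood mononuclear cells, a preparation of mainly lymphocytes and monocytes, of 5 obese dogs and 3 normal dogs. They were taken by symbol from a list of 42 names, which stand for 39 genes because ATP5A1, ATP5B and ATP5O are earlier names of ATP5F1A, ATP5F1B and ATP5PO. Of these, 31 genes had a row among the 35048 rows of each count table, and all 31 passed the filter on low counts, among 20632 genes tested. The remaining 8 (UQCRB, COX6A1, COX6B1, COX6C, COX7A2, COX7B, COX7C and ATP5PB) were not analysed here. The 31 comprised 12 subunits of complex I, 4 of complex II, 5 of complex III, 5 of complex IV and 5 of complex V.

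Obese dog 1 was a Dachshund and obese dog 2 a Chihuahua. Obese dogs 3 and 4 were both Labrador retrievers, while obese dog 5 was a Welsh Corgi. Normal dogs 1 to 3 were Beagles. Body condition and breed therefore cannot be told apart in any comparison. The labels give no age, sex, diet or treatment for either group. Libraries counted tags near the poly(A) end of each transcript, so the level of a gene, given as CPM (each count over the library total scaled by edgeR's TMM factor), depends little on transcript length and can be set beside that of another gene.

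The respiratory chain passes electrons from NADH, at complex I, and from succinate, at complex II, through complex III and cytochrome c to oxygen at complex IV, and complex V uses the resulting proton gradient to make ATP. Most subunits are made from nuclear genes and imported, while a core of hydrophobic subunits of complexes I, III, IV and V is encoded in mitochondrial DNA, and complex II is encoded in the nucleus throughout. Resting lymphocytes rely largely on this pathway for ATP, and its nuclear genes are commonly transcribed together under factors such as NRF1 and GABP.

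Depth ran from 10264202 to 14910982 counts per library, and no member had fewer than 41 counts in any dog. Obese dog 3 and normal dog 2 stood apart from the other dogs. Summed neutrophil markers reached 1972 CPM in obese dog 3, with 282 to 647 CPM in the other obese dogs, and 1955 CPM in normal dog 2, with 623 and 1133 CPM in the other normal dogs. Among these markers CSF3R was at 423 CPM and PADI4 at 329 CPM in obese dog 3, and at 362 and 284 CPM in normal dog 2, each the highest of its group, while ELANE was at 0 in 6 of 8 dogs and MPO was at most 1.36 CPM. Summed erythroid markers were 1174 CPM in obese dog 3 and 18.3 to 56.8 CPM in the other obese dogs, with 16.5 to 18.9 CPM in the normal dogs. Platelet markers summed to 74.7 to 1541 CPM in obese dogs, with 1541 CPM in obese dog 1 and 687 CPM in obese dog 2, and to 10.6 to 36.4 CPM in normal dogs. T cell markers summed to 476 to 1286 CPM in obese dogs and 297 to 389 CPM in normal dogs. In bulk RNA a smaller number of cells of a type and less RNA per cell cannot be told apart.

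No member of the nuclear-encoded chain passed the test between obese and normal dogs. With edgeR's quasi-likelihood test, adjusted over all 20632 genes by the Benjamini-Hochberg method at a threshold of 0.05, 0 of 31 members rose and 0 fell, where 0.0485% of all genes rose (10 genes) and 0.184% fell (38 genes). Adjusted p-values of the members ran from 0.286 to 1.00. At an unadjusted p under 0.05 there was 1 member higher (UQCRH) and 0 lower, against a background of 9.01% and 6.73% of all genes. DESeq2 called 0 members in either direction, where it called 2.92% of all genes higher and 2.08% lower. limma-voom with library quality weights called 1 higher, COX8A (adjusted p = 0.038, limma), and 0 lower, where it called 9.15% of all genes higher and 9.96% lower. The adjusted p of COX8A ran from 0.038 to 0.817 over all settings. Groups overlapped in each of the 31 members, whereas 10.9% of all genes had groups without overlap (5.75% higher and 5.16% lower in obese dogs).

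The fold changes of the members were small and of both signs. The log2 fold change, obese minus normal, was above 0 in 18 of 31 members (55.3% of all genes were above 0) and ran from −0.34 to 0.76, with a median of 0.04 beside a median of 0.09 over all genes. With upper-quartile scaling, which moved the median of all genes to −0.03, 10 members were above 0 and 21 of 31 below, and the member median was −0.08. For 21 of 31 members the 95% interval of the log2 fold change lay inside −1 to 1, a change of less than 2-fold in either direction, where 19% of all genes and 34.7% of the 10576 genes in the members' range of mean level had such an interval. These intervals are those of single genes, not adjusted for their number. Without normal dog 2, 8 members were above 0 (median −0.14), and without normal dog 1, 23 were (median 0.21).

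**Figure D1:**
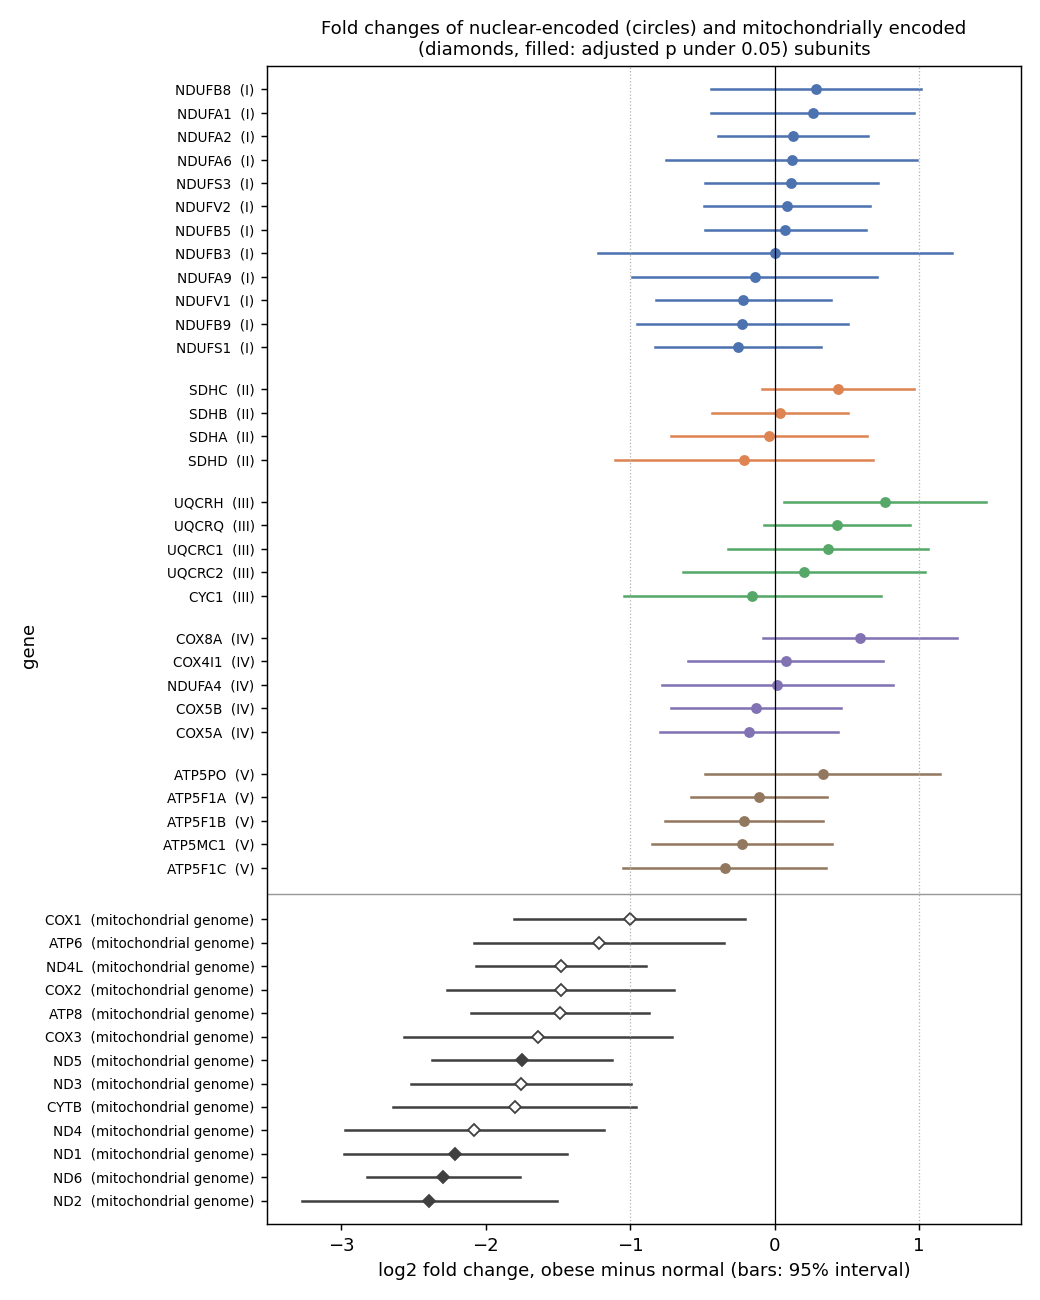
Log2 fold changes, obese minus normal, of 31 nuclear-encoded subunits by complex (circles) and of 13 subunits encoded in mitochondrial DNA (diamonds, filled where the adjusted p was under 0.05), with 95% intervals as bars and dotted lines at −1 and 1. The circles lie between −0.34 and 0.76 and the diamonds between −2.39 and −1.002.

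Levels differed far more between subunits than between groups. The highest mean over the 8 dogs was 389 CPM for NDUFB5 and the lowest 7.71 CPM for SDHD, with a median of 47.4 CPM over the 31 members beside 8.98 CPM over all genes tested. After NDUFB5 came ATP5F1B (149 CPM), COX4I1 (116 CPM), UQCRH (104 CPM), ATP5F1A (90.4 CPM), UQCRC1 (83.4 CPM) and COX8A (81.0 CPM), and at the low end COX5A (15.8 CPM), NDUFV1 (17.1 CPM), NDUFB3 (17.7 CPM) and CYC1 (19.9 CPM) preceded SDHD. From ATP5F1B down to COX5A each member's mean differed from the next by less than the larger SD of the pair over the 8 dogs, SDHD lay 8.12 CPM below COX5A, beyond that SD, and NDUFB5 was the highest member in each of the 8 dogs. The high value of NDUFB5 cannot be assigned to NDUFB5 alone: an uncharacterised protein-coding gene that overlaps it in the RefSeq annotation had 40392 counts over the libraries beside 42303 for NDUFB5, and their levels moved together (r = 0.997 over 8 dogs, descriptive, same libraries).

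**Figure D2:**
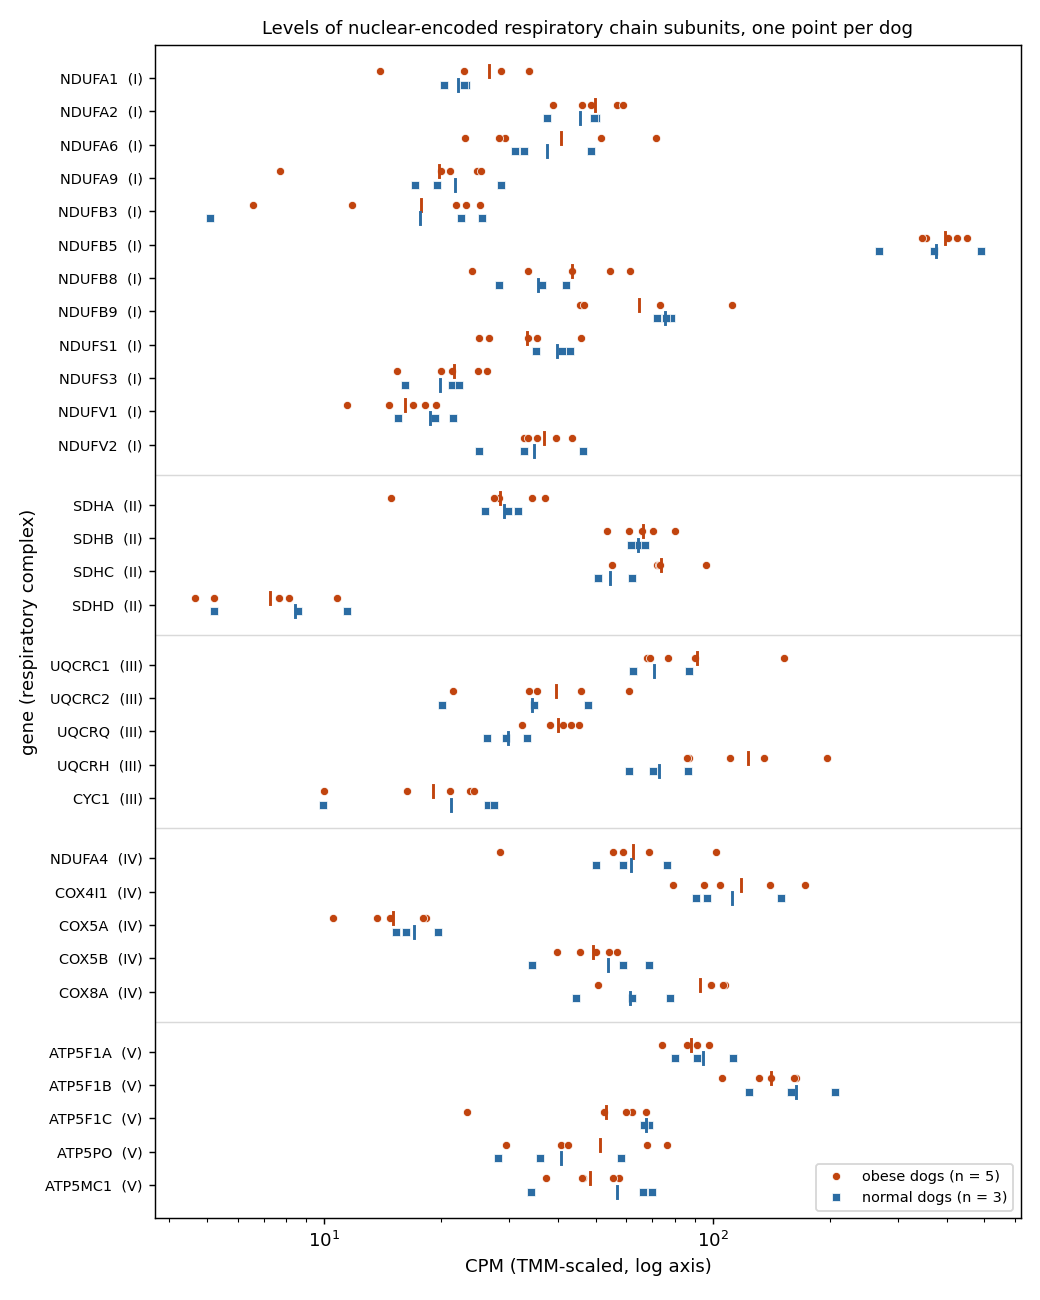
CPM on a log axis of each of the 31 subunits, with a point per dog, obese dogs (circles, n = 5) above normal dogs (squares, n = 3), and a vertical tick at each group's mean. Point clouds overlap for each gene, NDUFB5 stands at 268 to 491 CPM and SDHD at 4.65 to 11.5 CPM.

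Complex I, which oxidises NADH, had 12 measured subunits with a median log2 fold change of 0.08, 8 of them above 0. NDUFB5, an accessory subunit of the membrane arm, had 355, 452, 403, 426 and 346 CPM in obese dogs 1 to 5, against 491, 268 and 370 CPM in normal dogs 1 to 3. The obese values lay entirely inside the normal range (log2 fold change 0.07 with an SE, standard error, of 0.25). NDUFS1, the large iron-sulfur subunit of the NADH-oxidising arm, had the smallest p of the complex, with 25.1, 33.5, 26.7, 35.2 and 45.8 CPM in obese dogs, against 43.0, 35.2 and 40.9 CPM in normal dogs. Obese dogs 1, 2 and 3 were below each normal dog and obese dog 5 above each, and the log2 fold change of −0.25 (SE 0.26) did not pass (adjusted p = 0.669, edgeR). NDUFB9, an accessory subunit, had 112, 73.0, 45.8, 45.5 and 46.6 CPM in obese dogs, against 78.2, 75.9 and 72.01 CPM in normal dogs. Its obese values fell on both sides of a narrow normal range, and the log2 fold change of −0.22 was −0.52 without obese dog 1.

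The other subunits of the NADH-oxidising and quinone-reducing arm had closely similar means. NDUFV1, which binds NADH and flavin, had 16.1 ± 3.14 CPM in obese dogs (SD, n = 5) and 18.8 ± 3.02 CPM in normal dogs (SD, n = 3). NDUFV2, its iron-sulfur partner, had 36.9 ± 4.53 and 34.8 ± 10.8 CPM in obese and normal dogs. NDUFS3, a core subunit of the quinone-reducing part, had 21.6 ± 4.28 CPM in obese and 19.9 ± 3.26 CPM in normal dogs, and an overlapping uncharacterised RNA gene had 1870 counts beside its 2193, with levels that moved together (r = 0.922 over 8 dogs, descriptive). Each of these differences was smaller than the SD of the wider group. NDUFA9, on the same arm, had 19.8 ± 7.13 CPM in obese and 21.8 ± 6.04 CPM in normal dogs, and NDUFA2 had 49.8 ± 8.07 and 45.7 ± 7.15 CPM.

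Among the remaining accessory subunits NDUFB3 varied most between dogs of all 31 members. It had 6.58, 21.9, 11.8, 25.2 and 23.2 CPM in obese dogs, against 25.5, 5.09 and 22.6 CPM in normal dogs. Low values thus stood in both groups, in obese dogs 1 and 3 and in normal dog 2, and the fitted difference was 0.00 with an interval from −1.22 to 1.22. NDUFA1 (log2 fold change 0.26), NDUFB8 (0.29) and NDUFA6 (0.12) did not pass either. NDUFA6 had 71.3 CPM in obese dog 1 and 51.6 CPM in obese dog 2, with 23.0 to 29.3 CPM in the other obese dogs, against 31 to 48.7 CPM in normal dogs.

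Complex II, succinate dehydrogenase, is also an enzyme of the tricarboxylic acid cycle, and each of its 4 subunits was measured. SDHA, the flavoprotein that oxidises succinate, had 28.1, 34.2, 14.9, 27.3 and 37.0 CPM in obese dogs, against 29.7, 26.0 and 31.6 CPM in normal dogs. SDHB, the iron-sulfur subunit, had 65.7, 60.8, 70.1, 80.1 and 53.5 CPM in obese dogs, against 64.4, 61.6 and 66.8 CPM in normal dogs. The normal values of SDHB lay within the obese range, and at a within-group SD of 0.18 on the log2 scale it was the steadiest of the 31 members. SDHC, a membrane anchor, had 71.8, 95.9, 55.1, 72.9 and 73.1 CPM in obese dogs, against 62.1, 50.7 and 50.8 CPM in normal dogs. SDHD, the other anchor, had 4.65, 5.22, 10.8, 8.14 and 7.64 CPM in obese dogs, against 8.58, 5.20 and 11.5 CPM in normal dogs. SDHC was above each normal dog in 4 of 5 obese dogs (log2 fold change 0.44, SE 0.24, adjusted p = 0.402, edgeR), whereas SDHD had a value of −0.21 (SE 0.40). CFAP126, which overlaps SDHC in the annotation, had 4493 counts beside 7267 for SDHC and moved with it (r = 0.931 over 8 dogs, descriptive), and TIMM8B, which overlaps SDHD, had 1737 counts beside 841 without moving with it (r = −0.528).

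Complex III, which passes electrons from ubiquinol to cytochrome c, had the highest median of the 5 complexes, 0.37, with 4 of 5 members above 0 and none past the threshold. UQCRH, the hinge protein that links cytochrome c1 to cytochrome c, had 197, 111, 136, 86.9 and 85.7 CPM in obese dogs, against 86.6, 61.0 and 70.1 CPM in normal dogs. It was above each normal dog in 4 of 5 obese dogs, and obese dogs 4 and 5 stood beside normal dog 1. Its log2 fold change was 0.76 with an SE of 0.32, the largest of the 31 members in size, and it did not pass (adjusted p = 0.286, edgeR). Over all settings the value ran from 0.53 to 1.00 and the adjusted p from 0.119 to 0.676. The 0.53 was without obese dog 1, the library with the most platelet marker RNA, and the part of platelets in the value was not tested.

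UQCRQ, a small membrane subunit, had 41.2, 45.2, 32.3, 38.1 and 43.2 CPM in obese dogs, against 33.3, 29.4 and 26.3 CPM in normal dogs. Obese dog 3 alone fell within the normal range, and the log2 fold change was 0.43 (SE 0.23, adjusted p = 0.391, edgeR). UQCRC1 and UQCRC2, the core proteins, had 91.2 ± 35.4 and 39.4 ± 14.8 CPM in obese dogs (SD, n = 5), against 70.6 ± 14.2 and 34.3 ± 13.9 CPM in normal dogs (SD, n = 3). PDZD9, which overlaps UQCRC2, had 2765 counts beside 4228 and moved with it (r = 0.817 over 8 dogs, descriptive). The spread of UQCRC1 in the obese group came mostly from 152 CPM in obese dog 1. CYC1, or cytochrome c1, had 9.98, 21.1, 16.3, 23.8 and 24.3 CPM in obese dogs, against 26.4, 9.96 and 27.4 CPM in normal dogs, with low values in obese dog 1 and normal dog 2.

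Complex IV, cytochrome c oxidase, reduces oxygen, and 5 of its listed nuclear subunits were measured, with a median log2 fold change of 0.02. COX4I1, the widely expressed form of subunit 4, had 173, 141, 78.9, 104 and 95.2 CPM in obese dogs, against 150, 90.4 and 96.7 CPM in normal dogs. The groups covered nearly the same range (log2 fold change 0.08, SE 0.31). COX8A, a small membrane subunit, had 108, 99.2, 50.8, 106 and 99.1 CPM in obese dogs, against 77.6, 44.6 and 62.1 CPM in normal dogs. It was above each normal dog in 4 of 5 obese dogs, with obese dog 3 the exception, and the log2 fold change of 0.59 (SE 0.30) did not pass with edgeR (adjusted p = 0.377). NDUFA4, named after complex I and now counted with complex IV, had 62.5 ± 26.5 CPM in obese and 61.7 ± 13.3 CPM in normal dogs, and COX5A and COX5B had log2 fold changes of −0.18 and −0.13.

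Complex V, ATP synthase, had the lowest median, −0.21, with 4 of 5 members below 0. ATP5F1B, the catalytic beta subunit, had 164, 141, 106, 162 and 132 CPM in obese dogs, against 207, 124 and 159 CPM in normal dogs. ATP5F1C, the gamma subunit that turns inside the catalytic head, had 52.6, 67.2, 23.4, 61.9 and 60.01 CPM in obese dogs, against 67.2, 68.4 and 66.6 CPM in normal dogs. The normal values of ATP5F1C were within 2 CPM of each other and 4 of 5 obese dogs were below them. Its log2 fold change of −0.34 (SE 0.32, adjusted p = 0.631, edgeR) was −0.19 without obese dog 3. ATP5MC1, a source of the membrane ring, had 57.4, 37.2, 46.3, 55.5 and 46.0 CPM in obese dogs, against 69.9, 34.1 and 66.1 CPM in normal dogs, and the obese values lay inside the normal range. ATP5F1A, the alpha subunit, had 87.9 ± 8.88 CPM in obese and 94.7 ± 16.8 CPM in normal dogs. ATP5PO, the stalk protein that confers oligomycin sensitivity, had 51.4 ± 19.8 and 40.7 ± 15.5 CPM in obese and normal dogs, but an overlapping uncharacterised RNA gene with 4702 counts beside its 4969 moved with it (r = 0.998 over 8 dogs, descriptive).

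Variation between single dogs was shared by many subunits and did not follow the groups. Obese dog 3 had the lowest level of the 8 dogs in 11 members and normal dog 2 in 12, so that 23 of 31 minima were in these libraries. At the other end, normal dog 1 was highest in 10 members and obese dog 1 in 9. The median deviation of the members from their own mean over the 8 dogs was −0.37 in obese dog 3 and −0.34 in normal dog 2 on the log2 scale, beside −0.09 and −0.15 for all genes in the members' range of level. In normal dog 1 it was 0.33, beside 0.01. Summed over the 31 members the level was 2305, 2157, 1611, 1996 and 1804 CPM in obese dogs 1 to 5, against 2272, 1477 and 1829 CPM in normal dogs 1 to 3. The lowest sums of both groups were thus in the libraries with the most neutrophil marker RNA, and the part of neutrophil RNA in them was not tested. Left out together, these libraries left 13 of 31 members above 0 (median −0.05) and 0 called in either direction, where 137 of all genes rose and 485 fell (edgeR).

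**Figure D3:**
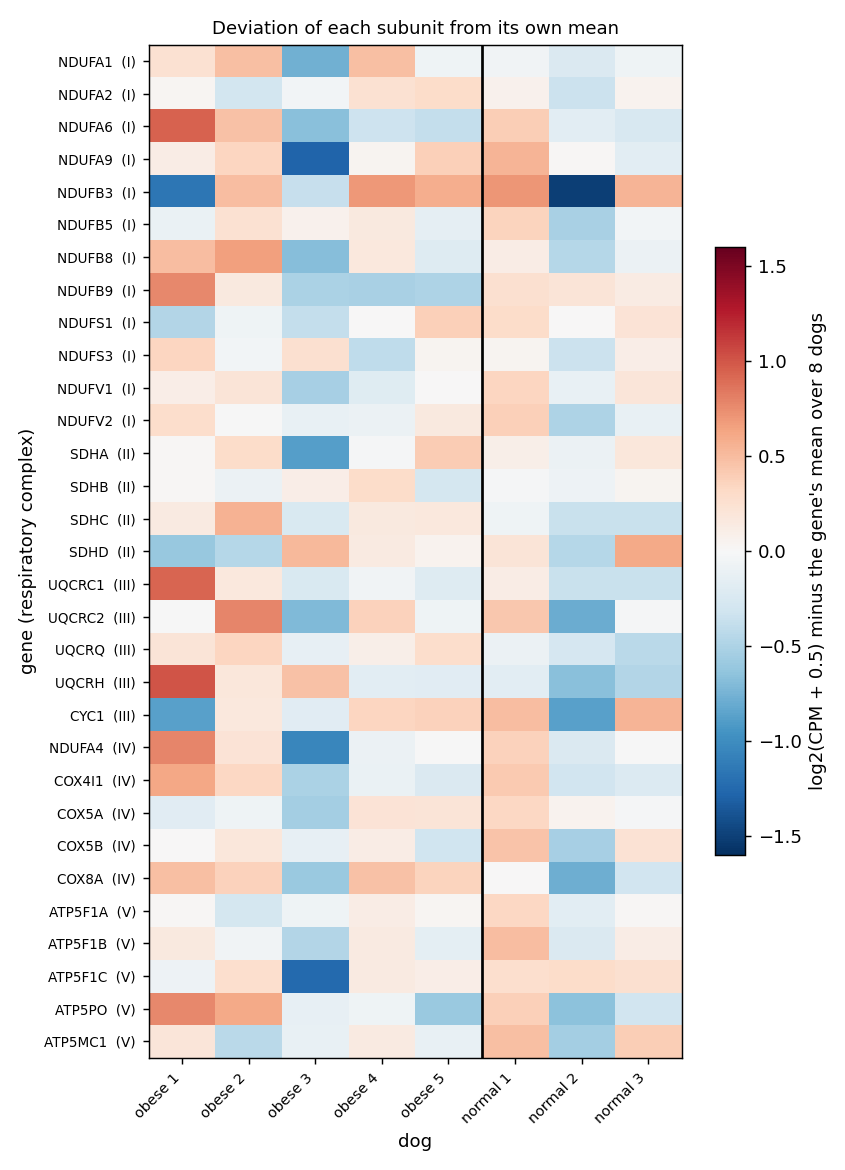
Deviation of log2(CPM + 0.5) of each of the 31 subunits from its own mean over the 8 dogs (red above, blue below), with obese dogs left of the black line and normal dogs right of it. The columns of obese dog 3 and normal dog 2 are mostly blue, with 26 of 31 members below their mean in each.

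Some subunits departed from this shared pattern. SDHD and NDUFS3 were above their mean in obese dog 3, as were UQCRH, SDHB and NDUFB5. In obese dog 1 UQCRH, UQCRC1 and NDUFA6 stood at their highest level, and NDUFB3, CYC1 and SDHD were low in the same dog. The pooled SD within groups on the log2(CPM + 0.5) scale ran from 0.18 for SDHB to 0.96 for NDUFB3, with a median of 0.42 over the members, beside 0.46 over the genes in the same range of level.

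The subunits encoded in mitochondrial DNA had other values in the same libraries. All 13 were lower in obese dogs by fold change (median −1.75), and 4 of them, ND1, ND2, ND5 and ND6, all of complex I, fell at an adjusted p under 0.05 (edgeR), where 0.184% of all genes fell. ND6 had 931, 1065, 839, 798 and 823 CPM in obese dogs, against 3748, 4662 and 4699 CPM in normal dogs, without overlap. As the strand setting is not given, it is not known whether ND6 was told apart from transcripts of the opposite strand. Without obese dog 3 there were 11 calls, where 1023 of all genes fell. Without any other single dog there were 0 or 1, where 2 to 33 of all genes fell. For complex I itself, the 12 measured nuclear members and the 7 mitochondrially encoded members had different values: the nuclear members ran from −0.25 to 0.29, and ND1, ND2, ND5 and ND6 had −2.21, −2.39, −1.75 and −2.29. The difference between the nuclear and mitochondrial members was not tested.

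The ratio of mitochondrially encoded to nuclear-encoded transcripts was lower in each obese dog than in any normal dog. The 13 mitochondrial genes summed to 26815, 20387, 9263, 15756 and 15666 CPM in obese dogs, against 42435, 72300 and 49148 CPM in normal dogs. Divided by the sum of the 31 nuclear members this was 11.6, 9.45, 5.75, 7.90 and 8.68 in obese dogs, against 18.7, 49.0 and 26.9 in normal dogs. The groups did not overlap in this ratio, whereas they overlapped in the nuclear sum. Normal dog 2 combined the lowest nuclear sum with the highest mitochondrial sum, and obese dog 3 was low in both. Other marker sums also lay lower in each obese dog than in any normal dog. Plasma cell markers summed to 150 to 266 CPM in obese dogs and 351 to 1249 CPM in normal dogs, and markers of proliferating cells to 184 to 325 CPM in obese and 630 to 798 CPM in normal dogs. Monocyte markers summed to 755 to 1390 CPM in obese dogs and 1424 to 2618 CPM in normal dogs. Among them VCAN had 377 ± 270 CPM in obese and 1470 ± 653 CPM in normal dogs. By log2 fold change, 6 of the 8 tested monocyte markers were above 0 and 2 below (median 0.32). The lower monocyte sum was thus not shared by most of its markers. T cell and platelet marker sums, given above, were higher in each obese dog. The part of these cell types in the mitochondrial difference was not tested, and body condition and breed cannot be told apart.

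**Figure D4:**
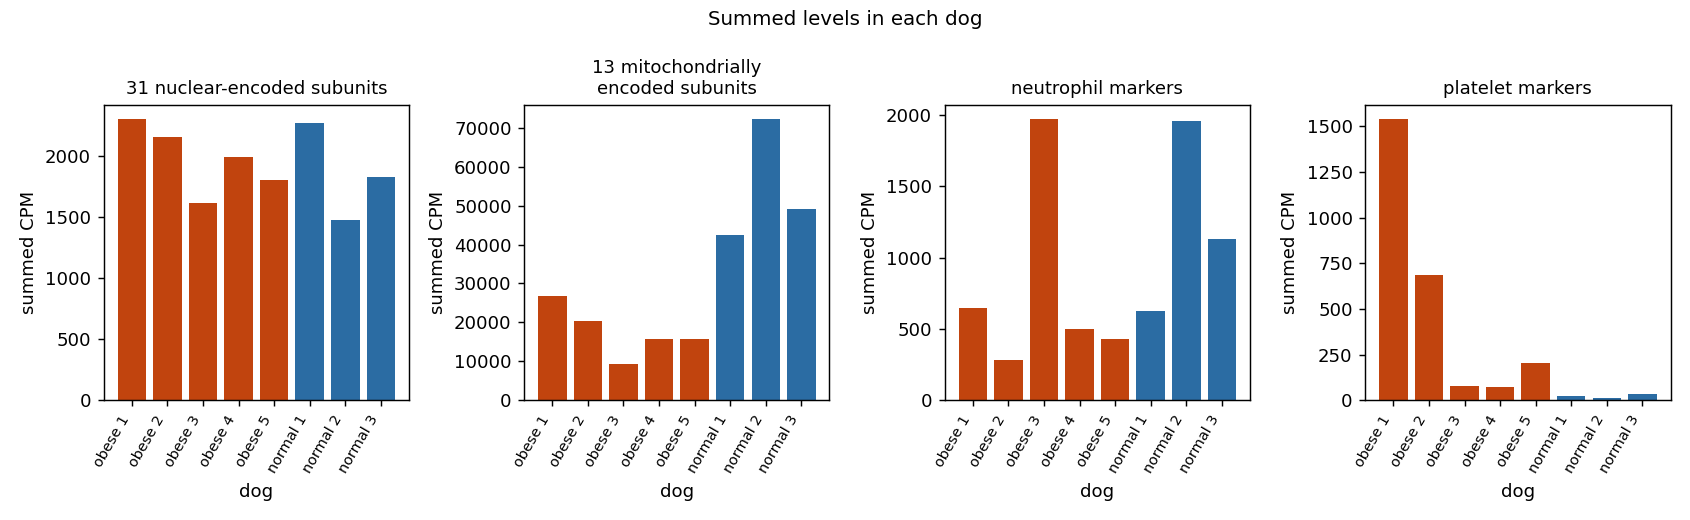
Summed CPM per dog of the 31 nuclear-encoded subunits, the 13 mitochondrially encoded subunits, the neutrophil markers and the platelet markers, with obese dogs in orange and normal dogs in blue. The nuclear sums overlap between the groups (1611 to 2305 CPM in obese and 1477 to 2272 CPM in normal dogs), and the mitochondrial sums do not.

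Nuclear-encoded subunits outside the 31 had a wider range of log2 fold changes than the members, from −1.418 to 1.555. Of 41 others tested, none passed with edgeR or DESeq2, 26 were above 0 and the median was 0.06. limma-voom called 1 of the complex I subunits among them higher and 1 of the complex IV subunits lower, where it called 9.15% of all genes higher and 9.96% lower. NDUFV3, a small subunit of complex I, had 42.0 ± 18.7 CPM in obese and 73.8 ± 7.15 CPM in normal dogs, without overlap and short of the threshold (adjusted p = 0.307, edgeR). Of the 41 subunits, 1 was higher and 1 lower without overlap, where 5.75% of all genes were higher and 5.16% lower. NDUFB4 had a log2 fold change of −0.51, and UQCR10, UQCR11 and UQCRFS1 of complex III had 0.53, 0.35 and −0.23. COX7A2L, which takes part in joining complexes III and IV, had 0.02, and ATP5J2, ATP5MC2 and ATP5MG of ATP synthase had 0.31, 0.41 and 0.20. BUD31, which overlaps ATP5J2 in the annotation, had 6179 counts beside 9039 and moved with it (r = 0.942 over 8 dogs, descriptive).

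Factors that build the complexes had 42 measured genes, none past the threshold with edgeR, with 29 above 0 and a median of 0.24. At an unadjusted p under 0.05 (edgeR), 6 were higher and 1 lower, where 9.01% of all genes were higher and 6.73% lower. DESeq2 called 2 of the 42 higher and 0 lower, and limma-voom 5 higher and 2 lower, where DESeq2 called 2.92% of all genes higher and limma-voom 9.15% higher and 9.96% lower. NDUFAF8, an assembly factor of complex I, had 16.9, 10.6, 14.7, 19.3 and 18.1 CPM in obese dogs, against 8.86, 7.86 and 6.44 CPM in normal dogs. SDHAF4, which acts on the flavoprotein of complex II, had a log2 fold change of 1.69, and both genes had groups without overlap (adjusted p = 0.173 and 0.189, edgeR). COX17, the copper chaperone of complex IV, had 6.24, 13.9, 19.3, 38.3 and 26.5 CPM in obese dogs, against 48.7, 62.3 and 63.4 CPM in normal dogs, also without overlap (log2 fold change −1.47, adjusted p = 0.190, edgeR). Of the 42 factors, 4 were higher and 1 lower without overlap, where 5.75% of all genes were higher and 5.16% lower.

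Regulators and neighbouring pathways had no member past the threshold with edgeR. DESeq2 called 1 tricarboxylic acid cycle gene higher, where it called 2.92% of all genes higher. limma-voom called 1 of that list higher and 1 import or membrane gene in each direction. It called 9.15% of all genes higher and 9.96% lower. Among 12 transcriptional regulators of respiratory genes the median was −0.07. YY1 had 168 ± 16.7 CPM in obese and 251 ± 102 CPM in normal dogs, PPARGC1A, the coactivator PGC-1α, had 15.3, 6.54, 9.41, 6.97 and 6.77 CPM in obese dogs, against 5.62, 24.5 and 21.4 CPM in normal dogs, and TFAM, which packages mitochondrial DNA, had a log2 fold change of 0.47. Of 13 enzymes of the tricarboxylic acid cycle, 7 were above 0 (median 0.13). IDH3B had 35.7 ± 7.88 CPM in obese and 18.2 ± 5.82 CPM in normal dogs, and CS, or citrate synthase, had 43.4 ± 6.21 and 58.1 ± 5.01 CPM, each group pair without overlap. Of the 13 enzymes, 1 was thus higher and 1 lower without overlap, where 5.75% of all genes were higher and 5.16% lower. MDH2 had 55.2, 23.9, 3.40, 4.57 and 11.3 CPM in obese dogs, against 3.73, 2.32 and 4.34 CPM in normal dogs, with the highest values in obese dogs 1 and 2, the libraries with the most platelet marker RNA, whose part was not tested. Its log2 fold change of 2.49 was 1.63 without obese dog 1. The adjusted p was 0.189 for IDH3B, 0.372 for CS and 0.244 for MDH2 (edgeR). Proteins of mitochondrial import and membranes (16 genes, median 0.01) included SLC25A6 (log2 fold change 0.81), PHB2 (0.76) and CHCHD3 (−0.47).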

How the data were processed

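RNA of peripheral blood mononuclear cells of 8 dogs was extracted with Trizol and made into Lexogen QuantSeq 3′ tag libraries, per the labels' protocols. The authors deposited raw whole-number counts per gene symbol, 1 table per dog. Bowtie2 and bedtools were used, per the submitters' processing notes. The sources used here give no build, annotation, strand setting or treatment of reads with several matches, and nuclear subunit genes often have processed copies, so counts of single subunits may include or lose such reads.

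Where a symbol was repeated (411 rows), the highest row by mean was used. edgeR 4.0.16 in R 4.3.3 was run with filterByExpr, TMM, glmQLFit and glmQLFTest (robust) over 20632 genes. Standard errors are the log2 fold change over the square root of F. No 2 libraries agreed within sampling noise (lowest chi-square per degree of freedom 35.9). In data simulated for this comparison (20035 genes) the test called 8% of genes changed 2-fold, 62% at 4-fold and 84% at 8-fold. Alternatives used DESeq2 1.42.0, limma 3.58.1, other scalings and filters and each dog left out. Overlaps come from gene spans of the RefSeq table of UU_Cfam_GSD_1.0. The members, lists and tests were chosen with earlier results of these data known. Named in full were, per complex, the member with the highest level and that with the smallest p, the 4 largest rises and decreases, the SDH subunits and, of other lists, the called genes or the 3 with the smallest p; further members were named after their values were seen. A planned search of promoter sequences was not run. Results for some genes that the rule names are not reported here.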

Additional observations from a re-analysis of the deposited data

Results flagged for a closer look

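Obese dogs were checked for a single dog far from the others in 60 quantities, and 6 had one, where chance gives about 1 in 20. Of the 31 members there were 2. UQCRC1 had 152 CPM in obese dog 1, with 67.6 to 89.9 CPM in the other obese dogs, and COX8A had 50.8 CPM in obese dog 3, with 99.1 to 108 CPM in the others. Among other genes, SDHAF4 had 21.7 CPM, ND5 had 297 CPM and CS had 54.3 CPM in obese dog 1, each the highest of the group. ATP5J2 had 72.1 CPM in obese dog 2, the lowest of the group.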

How the results depend on the processing

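Over 17 alternatives, 470 of 527 values of single members kept their direction and side of the threshold, 56 changed sign and 1 (COX8A with limma-voom, above) passed it, and 13 of 31 members changed sign under none; the causes were not tested. The members called stayed at 0 in both directions under each alternative except limma-voom, with 1 higher. Summing repeated symbols, or leaving mitochondrially encoded and globin genes out of the library size, gave the main fit's numbers of calls and member median. These settings could move the members little, so their agreement says little. Over all genes, DESeq2's Wald test called 602 higher and 429 lower, and limma-voom 1887 and 2055. With obese dog 3 and normal dog 2 both left out, 137 genes were higher and 485 lower (edgeR). With each dog left out in turn, 0 to 661 genes were higher and 2 to 1023 lower, with the most without obese dog 3; the member median ran from −0.14 to 0.21 and the members above 0 from 8 to 23. Upper-quartile scaling put 10 members above 0. The labels use the numbers only to name dogs. Deviations of same-numbered dogs had r from −0.209 to 0.005, which cannot exclude a shared order because such pairs were few. With the replicate block, a term for each dog number, 0 genes were higher, 0 lower, and 15 members were above 0 (median −0.03). Obese dogs 4 and 5 have no normal dog of the same number, so they added nothing to the group difference in that fit. Its loss of calls therefore cannot be set against the main fit of all dogs. Sign changes in the log2 fold change were as follows. Upper-quartile scaling gave NDUFA6 −0.013, NDUFB3 −0.099, NDUFB5 −0.037, NDUFS3 −0.002, NDUFV2 −0.029, SDHB −0.085, NDUFA4 −0.11, COX4I1 −0.048 and COX7A2L −0.095. The replicate block gave NDUFA2 −0.03, NDUFB3 −0.365, NDUFA4 −0.051 and ATP5MC2 −0.346. DESeq2's size factors and its Wald test each gave NDUFB3 −0.01, and limma-voom gave NDUFA9 0.155, NDUFS3 −0.145, COX5A 0.031 and COX7A2L −0.034. Leaving out obese dog 3 with normal dog 2, chosen after seeing the data, gave NDUFA2 −0.008, NDUFB3 −0.351, NDUFB5 −0.159, NDUFS3 −0.103, NDUFV2 −0.098, SDHA 0.016, SDHB −0.048 and COX7A2L −0.166. With single dogs left out, values ran from −0.029 to 0.209 for NDUFA2, −0.184 to 0.364 for NDUFA6, −0.313 to 0.122 for NDUFA9, −0.464 to 0.367 for NDUFB3, −0.149 to 0.324 for NDUFB5, −0.042 to 0.212 for NDUFS3, −0.133 to 0.361 for NDUFV2, −0.157 to 0.09 for SDHA, −0.044 to 0.102 for SDHB, −0.489 to 0.051 for SDHD, −0.097 to 0.534 for UQCRC2 and −0.521 to 0.042 for CYC1. They ran from −0.229 to 0.212 for NDUFA4, −0.102 to 0.352 for COX4I1, −0.397 to 0.095 for COX5B, −0.244 to 0.053 for ATP5F1A, −0.408 to 0.004 for ATP5F1B, −0.195 to 0.243 for COX7A2L and −0.139 to 0.474 for ATP5MG. The 4 calls among mitochondrially encoded genes became 12 with DESeq2, 13 with limma-voom and 0 with the replicate block. The simulated recovery of 8% at 2-fold limits what can be said of small changes.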

Other observations

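Tissue forms of complex IV subunits, looked at after their values were seen, were scarce in these cells. COX6A2, the heart and muscle form of subunit 6A, had 0 CPM in 7 dogs and 0.0558 CPM in obese dog 4, and COX4I2, an alternative to COX4I1, had at most 1.36 CPM, in obese dog 3. COX7A1, the muscle form of subunit 7A, had 4.76, 1.45, 0.68, 2.40 and 2.68 CPM in obese dogs, against 0.422, 0.664 and 1.79 CPM in normal dogs, and its log2 fold change of 1.30 did not pass (adjusted p = 0.424, edgeR). COX7B2 had 0.567 to 2.31 CPM in obese dogs and 2.18 to 4.54 CPM in normal dogs (adjusted p = 0.277, edgeR), but the overlapping gene GABRA4 had 325 counts beside its 199 and moved with it (r = 0.978 over 8 dogs, descriptive), so the value cannot be assigned to COX7B2 alone. Summed markers of muscle and fat were at most 14.5 CPM, in obese dog 3, and 0.574 to 1.93 CPM in the other dogs.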
